A study of Homo sapiens with 10 samples.

Results

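The transcripts of 9 ligands through which a tumour cell can restrain immune cells were followed in H441, an established human lung adenocarcinoma line of epithelial origin. The genes were CD274 (PD-L1), PDCD1LG2 (PD-L2), VTCN1 (B7-H4), CD276 (B7-H3), HHLA2 (B7-H7), LGALS9 (galectin-9), PVR (CD155), NECTIN2 (CD112) and CD47. They were taken by symbol from the deposited table, which held all 9 of them among 62709 genes. All 9 were among the 15832 genes that passed the filter on low counts. Total RNA was sequenced from 10 libraries, all of H441 cells grown with 10% serum, so the groups shared the line and the medium. WT (3 libraries) was labelled wild type without treatment, and KO (3 libraries) was labelled TET1 knock out, edited with CRISPR-Cas9 in the parental H441 cells. OE (2 libraries, numbered 1 and 2) was labelled transient TET1 overexpression, from cells transfected with a plasmid of full-length human TET1. Lipo (2 libraries, numbered 2 and 3) carried the wild-type, untreated label, and the labels do not explain that title word. The TET1 protein oxidises 5-methylcytosine, an early step of DNA demethylation.

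Several limits of the groups bear on every result. The labels do not say whether KO was a clone or a pool, nor whether libraries of a group came from separate cultures, so the p-values measure only the spread between these libraries. TET1 itself had 2, 7 and 0 reads in WT 1 to 3 and 4, 0 and 8 in KO 1 to 3, so its count could not check the KO label. Lipo 2 and 3 held 0 and 1 TET1 reads, and OE 1 and 2 held 17883 and 20805. No group was labelled as transfected with a plasmid lacking TET1. In every OE comparison, TET1 and the plasmid transfection therefore cannot be told apart. Total counts ranged from 20994462 to 25981097 per library, at which 3 reads correspond to 0.115 to 0.143 CPM (read counts scaled to the library size), and mitochondrially encoded genes took 4.74% to 8.72% of the counts. WT 1 stood apart from the other WT libraries, with a chi-square per gene of 42.7 and 46.5 against WT 2 and WT 3, which differed from each other by 6.37. The KO libraries differed among themselves by 39.6 to 65.0 per gene, and the Lipo and OE pairs by 6.16 and 4.87. All 9 epithelial markers examined exceeded 1 CPM in every group, and they summed to 16663 to 18607 CPM in WT, 14699 to 18731 in KO, 13236 to 13366 in Lipo and 12721 to 12894 in OE. Of these, the surfactant gene SFTPB (log2 -1.97) and the cadherin CDH1 (-0.75) fell in KO, SFTPB (-1.35) and SFTPA2 (-0.71) fell in OE against Lipo, and SFTPA2 (-1.36), SFTPB (-1.36) and SFTPA1 (-0.86) were lower in Lipo than in WT. None of 9 T and NK cell markers exceeded 1 CPM, with a summed level of 0.132 to 0.840 CPM over all libraries. The 8 macrophage and dendritic cell markers summed to 2.76 to 3.13 CPM in WT, 2.56 to 4.16 in KO, 3.33 to 3.54 in Lipo and 8.74 to 10.2 in OE. Of the 4 tested, ITGAM alone passed, as higher in OE than in Lipo (log2 4.30, SE 0.82, edgeR adjusted p = 0.00320). The 7 fibroblast and endothelial markers summed to 179 to 290 CPM in WT, 71.9 to 78.3 in KO, 172 to 185 in Lipo and 345 to 354 in OE. These sums were nearly all COL1A1 (means of 231, 63.9, 154 and 308 CPM in the same order) and LUM (17.5, 10.6, 21.4 and 39.3), and the other 5 markers had group means of at most 1.36 CPM. Of these last 2 lists, 1 marker each was at 0 in all libraries. The part of the epithelial, macrophage and fibroblast markers in the results was not tested, and in bulk RNA fewer cells of a type cannot be told apart from less RNA per cell.

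Checkpoint ligands are surface or secreted proteins that engage receptors on T cells, NK cells or phagocytes. CD274 and PDCD1LG2 bind PD-1 and dampen T cell activation, LGALS9 binds TIM-3, and PVR and NECTIN2 are shared by the inhibitory receptor TIGIT and the activating receptor CD226. CD47 binds SIRPα on macrophages and restrains phagocytosis, and is counted here among the checkpoint ligands although its best-known receptor is not on T cells. Interferons are known to induce CD274 and LGALS9 in many epithelial cells, and the interferon-stimulated response element (ISRE), bound by IRF proteins, is the classic promoter motif of such genes.

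The promoters of CD274, LGALS9 and VTCN1 are shown because these were the members whose transcripts changed in both the KO and the OE comparison. Each sequence runs 5′ to 3′ on the strand of its gene, from 250 bases before the RefSeq transcript start to 20 bases after it (GRCh38.p14), and capitals mark an ISRE core, defined here as TTTC, any 2 bases and TTTC on either strand. The CD274 window is chr9:5450292-5450561 on the plus strand, the LGALS9 window chr17:27630938-27631207 on the plus strand and the VTCN1 window chr1:117210908-117211177 on the minus strand.
CD274: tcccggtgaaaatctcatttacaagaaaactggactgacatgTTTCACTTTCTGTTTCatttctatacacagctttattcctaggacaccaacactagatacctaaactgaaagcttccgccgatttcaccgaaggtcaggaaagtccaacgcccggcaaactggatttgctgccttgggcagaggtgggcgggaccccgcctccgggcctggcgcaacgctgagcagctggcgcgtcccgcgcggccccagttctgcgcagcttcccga
LGALS9: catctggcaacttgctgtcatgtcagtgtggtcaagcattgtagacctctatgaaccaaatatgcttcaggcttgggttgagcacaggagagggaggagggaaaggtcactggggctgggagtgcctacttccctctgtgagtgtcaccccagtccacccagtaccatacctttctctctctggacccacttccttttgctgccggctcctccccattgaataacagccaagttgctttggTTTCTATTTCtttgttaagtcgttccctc
VTCN1: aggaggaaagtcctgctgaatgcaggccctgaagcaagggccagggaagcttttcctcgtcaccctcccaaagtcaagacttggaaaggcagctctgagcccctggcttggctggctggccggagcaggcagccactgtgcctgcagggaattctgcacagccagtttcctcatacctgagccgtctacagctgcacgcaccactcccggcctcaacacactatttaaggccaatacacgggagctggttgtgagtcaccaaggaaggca
In the full window of 300 bases (250 before and 50 after the start), CD274 held 2 overlapping ISRE cores, whose first bases lay at -208 and -202 from the start. LGALS9 held 1 ISRE core, at -9 from a RefSeq start that differs from the GENCODE start of the gene. VTCN1 held none. An ISRE core occurred in 3.57% of 34943 RefSeq promoter windows of the same length. The STAT-binding GAS motif, TTCNNNGAA, which reads the same on both strands, occurred in 7.66% of windows. In the members' windows it occurred in CD274 alone, at -125, and it overlapped neither ISRE core. The NF-kB consensus, found in 5.9% of windows, was in none of the members' windows. CG dinucleotides numbered 22 in the CD274 window, 2 in LGALS9 and 7 in VTCN1, against a median of 14 (quartiles 4 and 28) over all windows. Of the other members, CD276 (2 windows), PVR, NECTIN2 and CD47 held no ISRE core, and HHLA2 held 1 ISRE core, at 41 in the second of its 3 windows. PDCD1LG2 had no window. A match in letters is not a measured binding site, and the absence of one says only that these letters were not in the window.

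Levels were compared between genes per kilobase of exon, as CPM per kb. The length was that of all annotated exons of a gene together (5714 bases for LGALS9, 8225 for CD47). It can exceed the length of the transcripts present, so the order between genes depends on it. In CPM without this length, the WT means were 137 for CD276, 132 for CD47, 118 for NECTIN2 and 111 for PVR. In WT the most abundant ligands were PVR at 31.6 ± 0.145 CPM per kb and NECTIN2 at 31.6 ± 4.06 (SD, n = 3), whose libraries overlapped. CD276 followed at 24.7, and CD274 at 17.7 ± 2.47 overlapped CD47 at 16.0. Lower down, VTCN1 at 1.87 overlapped LGALS9 at 1.48, and PDCD1LG2 at 0.446 and HHLA2 at 0.118 were the scarcest. The order in KO was the same at the top, where PVR, NECTIN2, CD276 and CD47 followed each other with overlapping libraries. There CD274 had dropped below CD47, to 9.51 CPM per kb against 18.6. In Lipo, NECTIN2 (37.1) and PVR (36.1) overlapped at the top and were followed by CD276 (33.3), CD274 (11.1) and CD47 (9.55). In OE no neighbours in the order overlapped: NECTIN2 led at 67.0, followed by PVR at 55.0, CD276 at 34.5 and LGALS9 at 32.4. LGALS9 thus stood above CD274 (26.1) and CD47 (18.1) in OE, whereas it ranked below both in each other group. CD276 and LGALS9 were barely apart in OE, with 34.2 in the lower CD276 library and 34.1 in the higher LGALS9 library. In CPM, the OE libraries of PVR (mean 194), CD276 (191) and LGALS9 (185) overlapped.

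**Figure D1:**
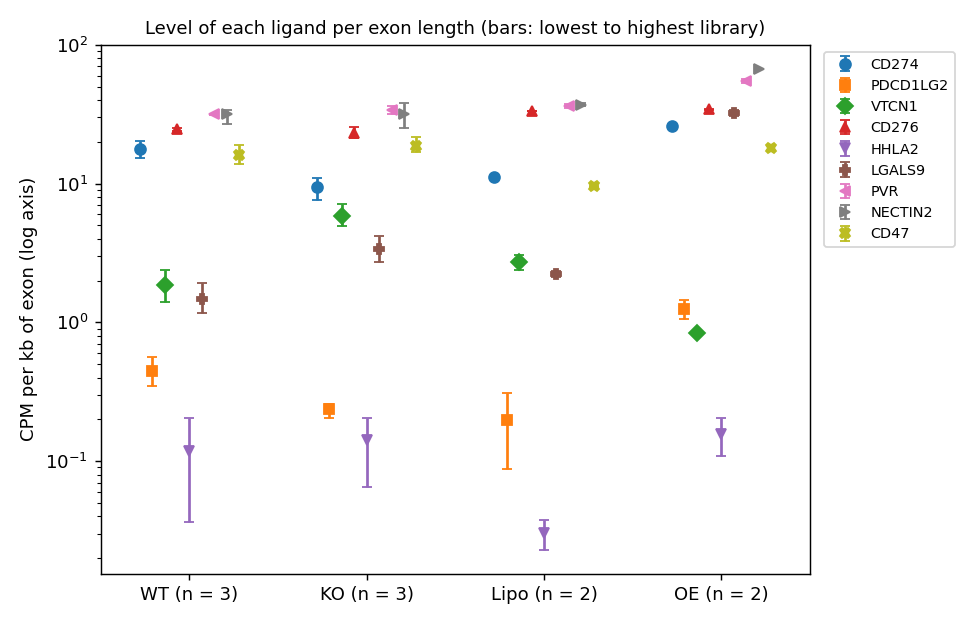
Mean level of each of the 9 ligands in CPM per kb of exon (log axis) in WT, KO, Lipo and OE, with bars from the lowest to the highest library. NECTIN2, PVR and CD276 sit at the top of every group, and LGALS9 stands between 1.48 and 3.40 CPM per kb in WT, KO and Lipo and at 32.4 in OE.

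In KO against WT, VTCN1 and LGALS9 rose and CD274 fell, while 6 members did not pass the test. These 2 of 9 rises stood against 5.13% of the 15832 tested genes higher in KO, the single fall against 7.45% lower, and the 3 calls together against 12.6% called in either direction. The members' median log2 change was 0.10, beside 0.00 over all tested genes, and 5 of 9 members had groups that did not overlap in CPM, as did 27.6% of tested genes. In OE against Lipo, CD274, PDCD1LG2, LGALS9, PVR, NECTIN2 and CD47 rose and VTCN1 fell. The 6 rises stood against 6.79% of genes higher, the fall against 5.53% lower and the 7 calls against 12.3% either way, and the members' median was 0.92, beside -0.01 over all genes. All 9 members had OE and Lipo libraries that did not overlap, as did 65.6% of genes with only 2 libraries a group. Without Lipo 2 the members called in OE numbered 4.

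Lipo and WT carry the same wild-type label, and the comparison of these groups gives the difference between controls. CD274 and CD47 were lower in Lipo than in WT and no member was higher, against 2.38% of genes lower, 1.32% higher and 3.70% either way. The members' median was 0.19, beside -0.02, and 7 of 9 did not overlap, against 43.6% of genes. Both calls were lost without Lipo 2, and likewise without Lipo 3. The KO change differed from the OE change for 6 members (lower in KO for 5 and higher for VTCN1), where 16.6% of genes differed. With WT as the control of OE, 7 members were called, against 25.0% of genes, and with Lipo as the control of KO, 3 members were called, against 17.4%. These comparisons share control libraries, so their values are given side by side and not as independent evidence.

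**Figure D2:**
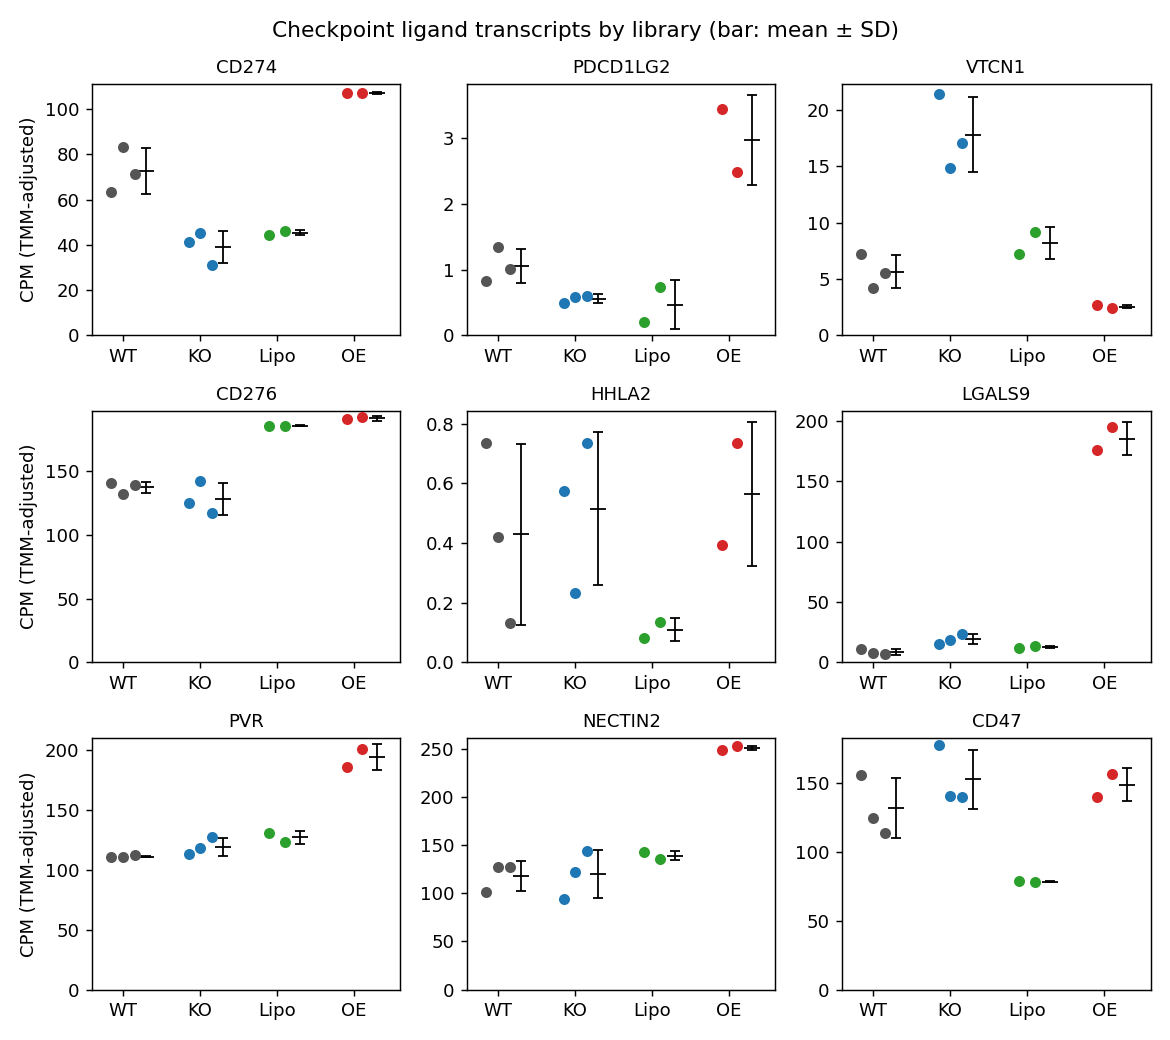
CPM of each ligand in every library (points) with the mean ± SD of the group (bar), on linear axes that start at 0. CD274 is lowest in KO and Lipo and highest in OE, VTCN1 has the reverse order, and LGALS9 lies between 6.62 and 23.8 CPM in all libraries other than OE, where it reaches 176 and 195.

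CD274 (ENSG00000120217, chromosome 9, 5450503 to 5470566, plus strand, GRCh38) encodes PD-L1, the main PD-1 ligand of tumour cells. Its level was 63.2, 83.4 and 71.3 CPM in WT 1 to 3 and 41.1, 45.0 and 31.1 in KO 1 to 3. It was 44.5 and 46.3 in Lipo 2 and 3, and 107 in both OE 1 and OE 2. Every KO and Lipo library was below every WT library, and both OE libraries were above all others. CD274 was 1.86-fold lower in KO than in WT (log2 -0.89, SE 0.15, adjusted p = 0.00106) and 2.36-fold higher in OE than in Lipo (log2 1.24, SE 0.18, adjusted p = 0.000379). The KO and OE changes differed by -2.13 (SE 0.24, adjusted p = 1.95e-05). The control mattered for this gene: Lipo was itself below WT (log2 -0.68, SE 0.17, adjusted p = 0.0376). Against Lipo, the KO difference was -0.22 (SE 0.16, adjusted p = 0.393), and against WT, the OE rise was 0.56 (SE 0.16, adjusted p = 0.0204). The Lipo difference lost its call without any 1 of WT 2, WT 3, Lipo 2, Lipo 3, OE 1 or OE 2, with adjusted p between 0.0669 and 0.292.

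PDCD1LG2 (ENSG00000197646, chromosome 9, 5510570 to 5571254, plus strand), the other PD-1 ligand, is best known from dendritic cells and macrophages and was scarce here. Its read counts were 19, 35 and 23 in WT, 11, 15 and 14 in KO, 5 and 16 in Lipo and 70 and 54 in OE. These correspond to mean levels of 1.06 ± 0.260 CPM (WT) and 0.559 ± 0.0648 CPM (KO; SD, n = 3 each), and of 0.469 ± 0.368 CPM (Lipo) and 2.97 ± 0.684 CPM (OE; n = 2 each). Both OE libraries exceeded all others, and the KO libraries lay below the WT libraries without overlap. PDCD1LG2 was 6.33-fold higher in OE than in Lipo (log2 2.66, SE 0.57, adjusted p = 0.00720) and was also higher in OE than in WT (log2 1.48, SE 0.47, adjusted p = 0.0318). The call against Lipo rested on few reads and was lost without Lipo 2 (adjusted p = 0.0924) or OE 1 (adjusted p = 0.0638). In KO the change of -0.91 (95% interval -1.90 to 0.08) did not pass the test (adjusted p = 0.229). The KO and OE changes differed by -3.58 (SE 0.74, adjusted p = 0.00387).

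CD274 and PDCD1LG2 are neighbours, 40003 bases apart on chromosome 9 with no protein-coding gene between them. Both passed the test as higher in OE. In KO both had WT and KO libraries that did not overlap, as did 27.6% of all tested genes. Only CD274 passed the test there. Against WT, the fitted difference of PDCD1LG2 in Lipo was -1.18 (SE 0.54, adjusted p = 0.258), beside -0.68 for CD274.

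VTCN1 (ENSG00000134258, chromosome 1, 117143587 to 117210960, minus strand) encodes B7-H4, a B7 family protein that restrains T cell proliferation and is made by several carcinomas. It moved opposite to CD274 in both comparisons. Its level was 7.23, 4.24 and 5.52 CPM in WT, 21.4, 14.9 and 17.1 in KO, 7.20 and 9.21 in Lipo, and 2.66 and 2.44 in OE. The lowest KO library was above every WT and Lipo library, and both OE libraries were below every other library. VTCN1 was 3.14-fold higher in KO than in WT (log2 1.65, SE 0.22, adjusted p = 0.000157) and 3.21-fold lower in OE than in Lipo (log2 -1.68, SE 0.29, adjusted p = 0.00152). The KO and OE changes differed by 3.34 (SE 0.37, adjusted p = 1.88e-05). Both calls held with the other control: KO against Lipo gave 1.12 (SE 0.25, adjusted p = 0.00683) and OE against WT gave -1.15 (SE 0.27, adjusted p = 0.00728). Lipo and WT differed by 0.54 (SE 0.25, adjusted p = 0.256).

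CD276 (ENSG00000103855, chromosome 15, 73683966 to 73714518, plus strand) encodes B7-H3, a B7 family protein abundant on many solid tumours. It had 140, 132 and 139 CPM in WT, 125, 142 and 117 in KO, 185 in both Lipo libraries, and 190 and 192 in OE. WT and KO overlapped, and Lipo and OE lay together above both. The KO change was -0.10 (95% interval -0.33 to 0.14, adjusted p = 0.634) and the OE change 0.05 (-0.24 to 0.33, adjusted p = 0.861). Both intervals thus lay within 0.33 of no change on the log2 scale. With the other control CD276 was called, as higher in OE than in WT (log2 0.48, SE 0.12, adjusted p = 0.00943) and as lower in KO than in Lipo (log2 -0.53, SE 0.12, adjusted p = 0.00778). Lipo against WT gave 0.43 (SE 0.12, adjusted p = 0.0629), a difference that passed under 5 of 18 alternatives, DESeq2 among them (adjusted p = 0.0156).

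HHLA2 (ENSG00000114455, chromosome 3, 108296490 to 108378285, plus strand), a B7 family ligand with both stimulatory and inhibitory receptors, was near the detection limit. It had 17, 11 and 3 reads in WT, 13, 6 and 17 in KO, 2 and 3 in Lipo, and 8 and 16 in OE. The WT and KO libraries overlapped widely. The fitted changes were 0.25 in KO (95% interval -1.24 to 1.74, adjusted p = 0.867) and 2.32 in OE (SE 1.00, adjusted p = 0.154). Neither passed the test, and at this depth a change was neither shown nor excluded. Both OE libraries were above both Lipo libraries. The OE change ranged from 0.4 to 2.37 under alternatives other than leaving out 1 library. HHLA2 lies 204627 bases from CD47 with 1 protein-coding gene between them.

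LGALS9 (ENSG00000168961, chromosome 17, 27629798 to 27649560, plus strand) encodes galectin-9, a beta-galactoside-binding lectin that engages TIM-3. It rose in both comparisons. Its level was 11.0, 7.68 and 6.62 CPM in WT, 15.6, 18.9 and 23.8 in KO, 12.2 and 13.4 in Lipo, and 176 and 195 in OE. All KO libraries were above all WT and Lipo libraries, and both OE libraries were far above the rest. LGALS9 was 2.30-fold higher in KO than in WT (log2 1.20, SE 0.19, adjusted p = 0.000766). It was 14.5-fold higher in OE than in Lipo (log2 3.86, SE 0.25, adjusted p = 5.74e-08), where 1.59% of tested genes had a larger change, and 22.0-fold higher in OE than in WT (adjusted p = 1.30e-09). The KO rise was below the OE rise by 2.65 on the log2 scale (difference -2.65, SE 0.30, adjusted p = 2.29e-05). Against Lipo, the KO difference was 0.60 (SE 0.21) and did not pass the test (adjusted p = 0.0639). Lipo against WT was also 0.60 (SE 0.21, adjusted p = 0.141), and 0.84 without WT 1 (adjusted p = 0.0310).

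LGALS9 has related copies, LGALS9B and LGALS9C, among which reads can be split or lost. Of the distinct 50-base stretches in annotated transcripts of LGALS9, 7.16% (435 of 6075) also occurred in either copy. For LGALS9B, 67.7% (1899 of 2804) also occurred in LGALS9 or LGALS9C. As LGALS9 shared only 435, most of those 1899 were shared with LGALS9C alone. LGALS9C had no reads in any library. LGALS9 also shares 294 exon bases on the same strand with AC015688.4, which had no reads in any library. LGALS9B had 3.79 ± 1.18 CPM in WT, 7.17 ± 1.03 in KO, 2.74 ± 0.0707 in Lipo and 27.7 ± 1.09 in OE, without overlap of KO with WT or of OE with Lipo. It was higher in KO (log2 0.92, SE 0.23, adjusted p = 0.0147) and in OE (log2 3.33, SE 0.29, adjusted p = 1.58e-06). Its reads equalled 22.4%, 61.7% and 62.9% of those of LGALS9 in WT 1 to 3, 38.5%, 41.9% and 31.8% in KO 1 to 3, 22.9% and 20% in Lipo, and 16.2% and 13.8% in OE. With the copies summed, the change was 1.12 in KO (adjusted p = 0.000162) and 3.78 in OE (adjusted p = 5.79e-09). The values of LGALS9B by itself are uncertain for the reason given.

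PVR (ENSG00000073008, chromosome 19, 44643798 to 44663583, plus strand) encodes CD155, the higher-affinity TIGIT ligand. It had 111, 111 and 112 CPM in WT, 113, 118 and 127 in KO, 131 and 123 in Lipo, and 186 and 201 in OE. Both OE libraries were above all others and the lowest KO library lay just above WT. PVR was 1.52-fold higher in OE than in Lipo (log2 0.61, SE 0.13, adjusted p = 0.00689) and 1.74-fold higher in OE than in WT (adjusted p = 0.000214). The call against Lipo was lost without Lipo 2, Lipo 3 or OE 2 (adjusted p = 0.0641, 0.120 and 0.102). In KO the change was 0.10 (95% interval -0.12 to 0.33, adjusted p = 0.600), and the KO and OE changes differed by -0.51 (SE 0.17, adjusted p = 0.0517). PVR shares 121 exon bases on the same strand with CEACAM19, which had 17.7 to 21.7 CPM in WT and 53.9 and 53.1 in OE. Whether the shared bases bear on the PVR change was not tested.

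NECTIN2 (ENSG00000130202, chromosome 19, 44846175 to 44889228, plus strand) encodes CD112, an adhesion protein that binds TIGIT, PVRIG and CD226. It had 101, 127 and 127 CPM in WT, 94.0, 122 and 144 in KO, 143 and 136 in Lipo, and 249 and 253 in OE. WT and KO overlapped throughout, and OE was above all others. NECTIN2 was 1.80-fold higher in OE than in Lipo (log2 0.85, SE 0.18, adjusted p = 0.00668) and 2.12-fold higher in OE than in WT (adjusted p = 0.000254). The call against Lipo was lost without Lipo 2, Lipo 3 or OE 2 (adjusted p = 0.0574, 0.0870 and 0.0542). In KO the change was 0.02 (95% interval -0.30 to 0.33, adjusted p = 0.960). The KO and OE changes differed by -0.83 (SE 0.23, adjusted p = 0.0240), a call lost without any 1 of the WT 2, WT 3, Lipo or OE libraries (adjusted p between 0.0547 and 0.115). PVR and NECTIN2 lie 182591 bases apart with 4 protein-coding genes between them.

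CD47 (ENSG00000196776, chromosome 3, 108043094 to 108091862, minus strand) encodes the "don't eat me" protein read by macrophages. It had 156, 125 and 114 CPM in WT, 178, 141 and 140 in KO, 78.7 and 78.4 in Lipo, and 140 and 157 in OE. Lipo was the group that stood apart, below every other library, and OE overlapped both WT and KO. CD47 was 1.90-fold higher in OE than in Lipo (log2 0.92, SE 0.17, adjusted p = 0.00256), but against WT the OE difference was 0.18 (SE 0.15, adjusted p = 0.430). Lipo itself was 1.68-fold lower than WT (log2 -0.75, SE 0.16, adjusted p = 0.0170), a call lost without Lipo 2 (adjusted p = 0.177) or Lipo 3 (0.224). In KO the change was 0.22 against WT (95% interval -0.08 to 0.51, adjusted p = 0.353) and 0.96 against Lipo (SE 0.16, adjusted p = 0.000991). The KO and OE changes differed by -0.71 (SE 0.22, adjusted p = 0.0399), a call lost without any 1 of 8 of the libraries, all but WT 3 and KO 1 (adjusted p between 0.0546 and 0.180).

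**Figure D3:**
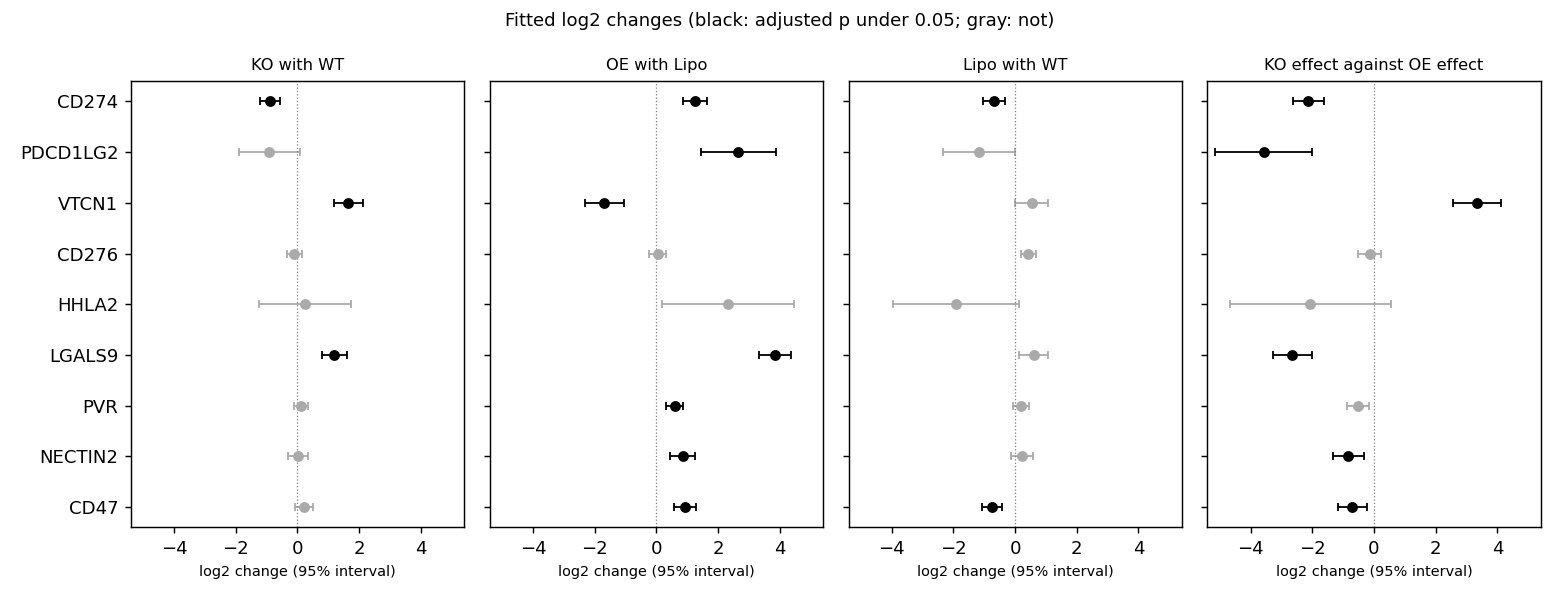
Fitted log2 change of each ligand with its 95% interval for the knockout against WT, for the overexpression against Lipo, between both controls, and for the KO change against the OE change (black where adjusted p was under 0.05, gray where not, with intervals unadjusted). CD274 and VTCN1 lie on opposite sides of 0 in KO and in OE, LGALS9 lies above 0 in both, and CD276 stays near 0 in both.

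The genes whose profiles over the 10 libraries were most like a member's were ranked by Pearson correlation of log2 CPM among 10546 candidates. The libraries fall into 4 groups, so these values mostly describe shared differences between groups and are given without a test. LGALS9 was most like IFIT3 (0.990), IFITM3 (0.987) and PML (0.986). PVR was most like SECTM1 (0.989), UBE2L6 (0.988) and SLC44A2 (0.985), and NECTIN2 like SLC5A6 (0.995), LGALS3BP (0.993) and TICAM1 (0.990). CD274 had PHLPP2 (0.970) and B3GNT5 (0.968) among its nearest, and PDCD1LG2 was most like PDCL3P4 (0.938), ZNF3 (0.924) and MAP3K14 (0.922). VTCN1 was most like MRPS27 (0.980), TOMM20 (0.980) and NONO (0.977), and CD47 like UFM1 (0.970), ZBED5 (0.967) and DBR1 (0.955).

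The counts over gene lists from here on stand beside the shares of all tested genes. These were 5.13% higher and 7.45% lower in KO, 6.79% higher and 5.53% lower in OE, and 1.32% higher and 2.38% lower in Lipo against WT. A single call in a short list is not read as a result about that list. Of the other B7 and butyrophilin ligands, 8 of 16 were tested, and 7 of these 8 rose in OE while none fell. Their median change in OE was 1.26, beside -0.01 over all genes. BTN3A3 is a relative of a butyrophilin through which gamma delta T cells detect phosphoantigens. It went from 13.7 and 9.44 CPM in Lipo to 40.3 and 44.2 in OE (log2 1.86, SE 0.20, adjusted p = 1.96e-05). BTN2A2 (1.38), BTN3A2 (1.21) and BTN2A1 (1.06) rose with it. In KO none of the 8 passed the edgeR test or that of DESeq2, none had an unadjusted p under 0.05, and the median was 0.15. The costimulatory ligands, which work against the members by activating T cells, numbered 6 tested of 9. In OE 3 rose and none fell (median 1.23), among them ICAM1 (log2 1.83, SE 0.18, adjusted p = 6.10e-06), the adhesion ligand of LFA-1, TNFSF15 (1.69) and CD40 (0.77), itself a receptor. In KO, ICAM1 alone passed, as lower (log2 -0.46, SE 0.14, adjusted p = 0.0471), and the median was -0.15. This call was lost without WT 3, KO 1, KO 3 or any Lipo or OE library, and the OE count was 5 with WT as control.

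Of the nectin relatives, 6 of 7 were tested. Of these 6, none passed in OE by edgeR or DESeq2, with 0 of 6 at an unadjusted p under 0.05 (median -0.01), and 2 fell in KO (median -0.73). NECTIN1, an adherens junction protein, went from 141, 194 and 192 CPM in WT to 65.6, 94.5 and 90.3 in KO (log2 -1.08, SE 0.15, adjusted p = 0.000287). CADM4, a cell adhesion protein at 1.90 to 3.68 CPM in WT, fell by 1.31 on the log2 scale (adjusted p = 0.0204). The count of 2 in KO became 1 without WT 2, WT 3, KO 2 or KO 3.

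Among 10 tested of 14 other inhibitory or "don't eat me" ligands, 4 fell and none rose in KO (median -0.25). These were CD24 (log2 -0.93), which binds Siglec-10, SIGLEC15 (-1.78), CEACAM1 (-0.79), an adhesion protein with an inhibitory tail, and the complement regulator CD55 (-0.46). In OE 2 rose and 1 fell (median 0.22). CEACAM1 went from 11.2 and 16.7 CPM in Lipo to 99.1 and 102 in OE (log2 2.85, SE 0.20, adjusted p = 1.68e-07). HLA-G was also called higher in OE (adjusted p = 0.0424), but its OE libraries held 0.444 and 2.12 CPM and HLA genes are near-identical over long stretches, so its value is uncertain. FGL1 had 14 reads in Lipo and none in OE, at least 4.27-fold lower against a floor of 3 reads over the group. The OE count of 3 was 1 without WT 2, Lipo 2, Lipo 3 or OE 2, and 5 without WT 1. In Lipo against WT, CD59 (-0.83) and CD55 (-0.79) were lower.

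The partner receptors themselves were listed at or near 0. Of 16 receptors, 8 were listed at 0 in every library, PDCD1, TIGIT and SIRPA among them, and no receptor exceeded 1.24 CPM in any library. Of these 2 were tested, and neither passed in any comparison by edgeR or DESeq2 and neither had an unadjusted p under 0.05. IRF9 and TRAPPC4, which most cells express, were also listed at 0 in all 10 libraries, so a 0 in this table does not by itself show that a gene was silent.

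The interferon to JAK-STAT to IRF genes, which carry or restrain the signal that induces CD274, were measured for 18 of 19. In OE 9 rose and none fell (median 0.45), beside 12.3% of all tested genes called in OE. These 9 included SOCS1 (log2 2.75) and SOCS3 (0.77), which restrain the signal. IRF1, a direct activator of CD274, went from 13.1 and 14.7 CPM in Lipo to 71.6 and 74.3 in OE (log2 2.39, SE 0.20, adjusted p = 9.07e-07). STAT2 (1.39) and the interferon lambda receptor gene IFNLR1 (1.16) also rose. The OE count fell to 4 without Lipo 2, Lipo 3 or OE 1. In KO none rose and 2 fell (median -0.11), beside 12.6% of all tested genes called in KO, and the count became 1 without KO 2 or KO 3. IFNLR1 had 755 reads over the WT libraries and none in KO, at least 249-fold lower against a floor of 3 reads over the group. PTPN2, a phosphatase that dephosphorylates JAK and STAT proteins, fell by 0.70 on the log2 scale (adjusted p = 0.0154). In Lipo against WT none of the 18 passed by edgeR or DESeq2, with 3 at an unadjusted p under 0.05.

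Other regulators of PD-L1, by transcription or protein stability, moved in both directions. Of 22 tested of 23, 1 rose and 4 fell in KO (median -0.09). MYC rose (log2 0.78), and EGFR (-0.83), HIF1A (-0.60), ADAM10 (-0.47), which sheds PD-L1 from the surface, and CMTM4 (-0.39) fell. In OE 2 rose and 3 fell (median -0.07). The NF-kB subunits NFKB1 (0.99) and RELA (0.50) rose. CMTM4, which stabilises PD-L1 protein, went from 149 and 143 CPM in Lipo to 44.7 and 49.3 in OE (log2 -1.63, SE 0.15, adjusted p = 3.55e-06), and its relative CMTM6 also fell (-0.55). The KO count of 5 was 3 without WT 2, WT 3 or any Lipo or OE library, and the OE count of 5 was 2 to 3 without WT 2, WT 3 or any Lipo or OE library. It was 14 with only the groups compared.

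**Figure D4:**
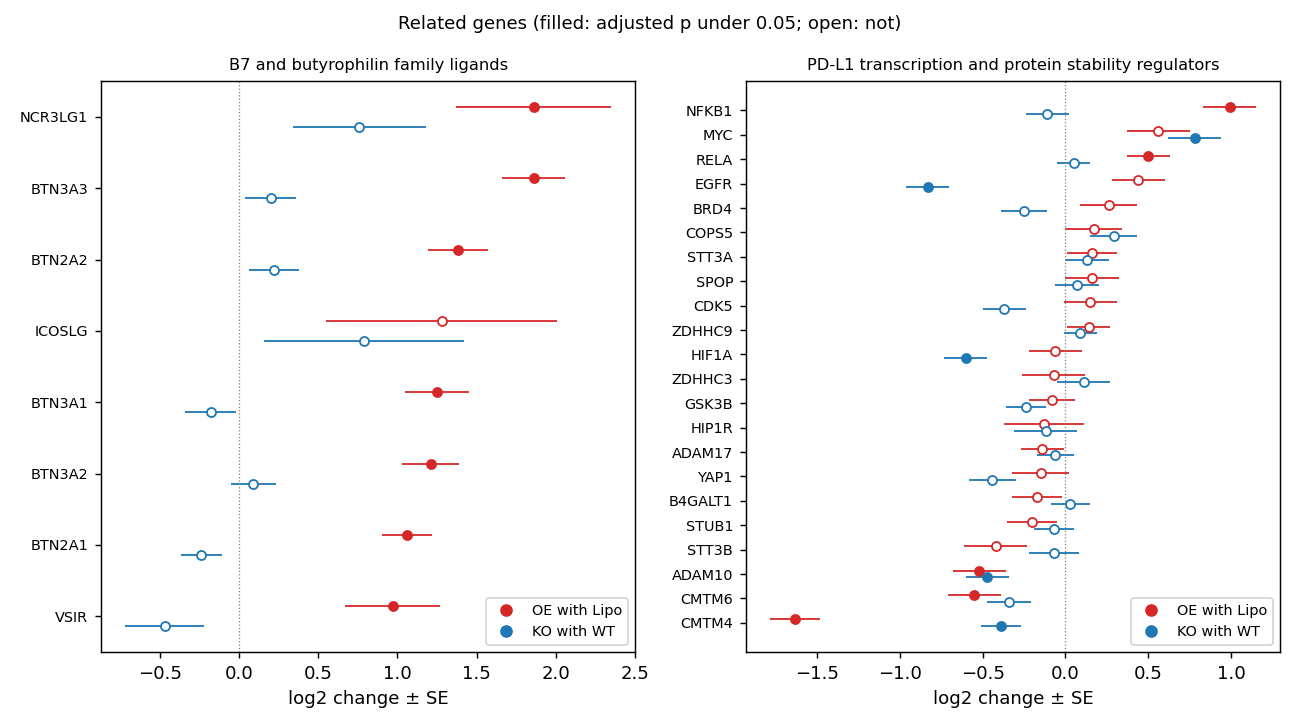
Fitted log2 change ± SE in OE against Lipo (red) and KO against WT (blue) for the 8 tested B7 and butyrophilin ligands and the 22 tested regulators of PD-L1, filled where adjusted p was under 0.05. In OE 7 of 8 ligands are filled, all to the right of 0, whereas the 5 regulators filled in OE lie on both sides of 0, with CMTM4 farthest to the left.

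Of 6 tested genes of 7 that act with CD47, QPCT rose in KO and THBS1 fell (median 0.01). QPCT is a relative of the enzyme that modifies the SIRPα-binding end of CD47, and it went from 2.08, 2.37 and 1.84 CPM in WT to 5.16, 4.45 and 5.15 in KO (log2 1.23, adjusted p = 0.0304). The secreted CD47 ligand THBS1 had 200, 133 and 132 CPM in WT and 72.7, 131 and 74.1 in KO (log2 -0.74, adjusted p = 0.0311), so that KO 2 lay near WT 3. Neither was called without WT 1, KO 1 or KO 3, and 1 of the 2 was called without WT 2, WT 3 or KO 2. In OE THBS1 rose from 89.9 and 89.2 CPM to 235 and 245 (log2 1.42, adjusted p = 0.00230), and CALR, an "eat me" signal that CD47 opposes, rose by 0.45 (median 0.24). The OE count of 2 was 1 without WT 2, WT 3, Lipo 2, OE 1 or OE 2. Of 15 other galectin and galectin-binding genes, 5 were tested, and LGALS9B was the 1 that passed in KO. In OE, LGALS9B and LGALS3BP (log2 1.56, adjusted p = 0.000260), a galectin-binding glycoprotein and not itself a galectin, passed, with a list median of -0.12. LGALS1, LGALS3 and LGALS8 passed in neither KO nor OE. The KO count ranged from 0 with only the groups compared to 3 with Lipo as control, and the OE count was 4 with WT as control.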

How the data were processed

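The authors deposited 1 table of raw counts, whole numbers of reads for each gene with no normalization. The genome build GRCh38 and the tools featureCounts, HISAT2 2.1.0, edgeR and FastQC appear in the submitters' processing notes, and whether counting used strand is not given in the sources used here. Columns were matched to samples by title, and 2 columns that matched none were not used. Another 1 entry without values was left out. Genes were filtered with filterByExpr, scaled by TMM and fitted with edgeR 4.0.16 (robust quasi-likelihood, R 4.3.3) over all 10 libraries, modelling each of the 4 groups, which left 6 residual degrees of freedom. Tests were two-sided, and p-values were adjusted by Benjamini-Hochberg over 15832 genes, with a threshold of 0.05. CPM are counts scaled to TMM-adjusted library sizes, and the exon lengths behind CPM per kb, like all positions, come from GENCODE release 29 (58273 identifiers matched).

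OE was compared with Lipo, whose title differs from that of WT, and also with WT. The script was tested on simulated data. The members and gene lists were chosen with earlier results of these data known. The text names all 9 members and, of each list, up to 4 genes with the smallest p among those that passed in KO and in OE and up to 2 in Lipo. It also names LGALS9B and LGALS9C, and the 3 genes with the highest correlation with each called member among genes whose mean log2 CPM reached 2. The other genes named (COL1A1, LUM, ITGAM, PDCD1, TIGIT, SIRPA, IRF9, TRAPPC4, CEACAM19, AC015688.4, SOCS1, SOCS3, LGALS1, LGALS3, LGALS8 and the epithelial markers with values) were chosen after their values were seen. Some genes that this rule picks are not reported here. Promoter sequences are from RefSeq, with a window for 8 of 9 members. Each result was recomputed with DESeq2 1.42.0, with RLE scaling or none beyond library size, without the filter or with a stricter one (1 CPM in 3 libraries), and without mitochondrially encoded genes. It was also recomputed in a fit of the compared groups alone, with replicate number as a block, with other controls, and without each library in turn. The control Lipo for KO, and the fit without WT 1 and KO 1, were chosen after seeing the data. Intervals of log2 changes come from the edgeR fit and include the spread between libraries, and floors cover counting error only.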

Additional observations from a re-analysis of the deposited data

How the results depend on the processing

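Of 36 member results, 18 passed the test, and 8 of these kept their call and direction under all alternatives run for them. Over 681 member values under alternatives, 624 kept both, 35 lost a call, 14 gained one and 8 changed sign, none of these 8 for a called result. CD274, VTCN1 and LGALS9 were called in KO under every alternative other than Lipo as control, which called VTCN1, CD276 and CD47. Without WT 1 and KO 1 the changes of CD274, VTCN1 and LGALS9 were -1.03, 1.70 and 1.57.

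The sign changed for NECTIN2 in KO against WT and Lipo together (5 libraries, -0.08) or against Lipo (-0.22), and its change ranged from -0.13 to 0.17 with 1 library left out. With Lipo as control the KO change also turned to 0.27 for PDCD1LG2 and to -0.09 for PVR, and HHLA2 ranged from -0.17 to 0.86 with 1 library left out. HHLA2 gave no value under the stricter filter and in some other fits. The call of CD47 in OE was lost against WT and Lipo together (0.43, adjusted p = 0.205). PVR passed as different between KO and OE under 4 of 17 alternatives. Among them were DESeq2 (adjusted p = 0.0302) and a fit with 1 library left out (edgeR adjusted p = 0.0169).

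The number of genes called in KO against WT was 1216 with only the groups compared and 1125 to 2297 with 1 library left out, beside 1992. In OE against Lipo it was 5664 with only the groups compared, 3953 with WT as control and 673 to 2657 with 1 library left out, beside 1950, and the members called were then 4 to 7. In Lipo against WT it was 992 with DESeq2, 1100 with no filter and 34 to 977 with 1 library left out, beside 586, and the members called were then 0 to 3. For the difference between the KO and OE changes it was 1373 to 3023 with 1 library left out, beside 2632, and the members called were then 4 to 6. The causes were not tested. No scaling moved the median of all genes by more than 0.1.

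With the replicate number as a block in the fit of all 10 libraries, 3 members were called in KO, 7 in OE, 3 in Lipo and 7 for the difference, and all genes called numbered 2874, 2678, 850 and 3402. Deviations of same-numbered WT and KO libraries correlated at 0.33, 0.06 and 0.18, beside -0.24 to 0.09 for differently numbered ones. WT 1 and WT 3 correlated best with the KO library of their own number, and WT 2 with KO 3. Same-numbered WT and Lipo libraries correlated at -0.01 and -0.06. The labels do not state a pairing, so the numbers were not shown to pair the samples. For HHLA2 and PDCD1LG2 the depth limits what could be detected.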
